A study of Gallus gallus with 25 samples.

Results

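The contact domains of chromosome 3 in chicken oocytes are described here from 4 automatic lists of domains, each called on a pooled Hi-C map. Every domain with chromosome 3 as its chromosome was taken, which gave 634 of the 5602 domains in the 4 lists. The maps pooled wild-type oocyte nuclei of 2 stages: the lampbrush chromosome stage (LBC), from oocytes of 1 to 2 mm in diameter, and the following stage (post-LBC), from oocytes of 4 to 7 mm. Each stage was divided by the authors into type 1, with few contacts between chromosomes, and type 2, with more of them. The paper calls the origin of the types unclear. It holds a pre-lampbrush stage to be the more plausible reading of LBC type 2. Contamination by a somatic cell is named there as an alternative and called unlikely. Post-LBC type 2 is, in its view, likely later than post-LBC type 1. It also reports that LBC type 2 borders resembled those of chicken fibroblasts. Its main domain analyses used type 1 alone. The step between the type 2 lists may therefore differ from that between the type 1 lists. The LBC type 1 map held 14 nuclei, LBC type 2 held 6, post-LBC type 1 held 4 and post-LBC type 2 was a single nucleus, which is 25 nuclei in all. The LBC type 1 list held 178 domains of chromosome 3 out of 1546, LBC type 2 held 173 of 1582, post-LBC type 1 held 128 of 1132 and post-LBC type 2 held 155 of 1342.

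Lampbrush chromosomes are the giant transcribing meiotic bivalents of growing oocytes in birds, amphibians and other animals. Their axis is a row of compact granules, the chromomeres, from which pairs of loops covered with nascent RNA extend. As the oocyte matures the loops retract, transcription falls and the chromosomes condense. Hi-C counts how often pairs of loci are ligated together in a nucleus, and a contact domain is a stretch of chromosome whose loci meet each other more often than they meet loci outside it. A border separates neighbouring domains, so a border that is called at one stage and not at the next means that the list places its neighbours, or parts of them, in a common domain.

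Each list gives only the first and last base of a domain. There is one list per pooled map and no value per nucleus, so no test over nuclei was possible, and the intervals given are 95% Wilson intervals that cover counting error alone. The number of contacts behind each map is not contained in the lists. In an example of the pooled maps shown in the paper, the post-LBC map held fewer contacts than the LBC map. For single nuclei the domain call was tuned by the authors to bring the mean size of domains over 200 kb closest to 1 Mb, and whether the merged maps were called in the same way is not given in the sources used here. Stage, the number of nuclei pooled, the number of contacts and the settings of the domain call for each map cannot be told apart. Positions are on the chicken assembly ASM2420605v2.

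All lists began at base 240001 and ended between 112336000 and 112368000, and the domains covered 96.7 to 98.3% of that span. The same large gaps stood in all of them. One ran from 6000001 to 7424000 in 3 lists and to 7568000 in post-LBC type 2. The other began at 13440001 and ended at 13824000 or 13920000. Besides these, LBC type 1 had 4 gaps, LBC type 2 and post-LBC type 1 had 2 each, and post-LBC type 2 had 14, none of them over 192 kb. The single-nucleus list was therefore the most interrupted of the 4.

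Between the automatic lists, domains of chromosome 3 were longer at the post-LBC stage in type 1, whereas the difference in type 2 was small. The direction in type 1 turned when the LBC list refined by hand took the place of the automatic one, with a ratio of medians of 0.803. That ratio compares lists of unlike kinds, a refined LBC list with an automatic post-LBC one. In LBC type 1 the median length was 576 kb (quartiles 432 and 784 kb) and the mean 617 kb. In post-LBC type 1 the median was 848 kb (quartiles 592 and 1088 kb) and the mean 861 kb, a ratio of medians of 1.47. LBC type 2 had a median of 608 kb (quartiles 464 and 768 kb), close to LBC type 1. Post-LBC type 2 had a median of 656 kb (quartiles 472 and 928 kb), a ratio of 1.08. The quartiles of the stages overlapped in both types. Over the 28 chromosomes present in every list the medians of the 4 groups were 592, 608, 864 and 688 kb in the order LBC type 1, LBC type 2, post-LBC type 1 and post-LBC type 2. The type 2 ratio of chromosome 3 ranked 27th of the 28 chromosomes from the highest, and its type 1 ratio ranked 12th. Chromosome 4 had nearly the same type 2 ratio, 1.08, and chromosome 2 had 1.11. The median of the type 2 ratios over the 28 chromosomes was 1.21.

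In type 1 both quartiles were higher at the post-LBC stage, as was the median. Domains over 1 Mb numbered 11 of 178 in LBC type 1 and held 11.6% of the summed domain length. In post-LBC type 1 they numbered 47 of 128 and held 52.2% of the length. In type 2 they numbered 15 with 15.0% of the length at the LBC stage and 29 with 31.2% at the post-LBC stage. Domains under 400 kb numbered 31 before and 10 after in type 1, and 24 and 23 in type 2.

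**Figure D1:**
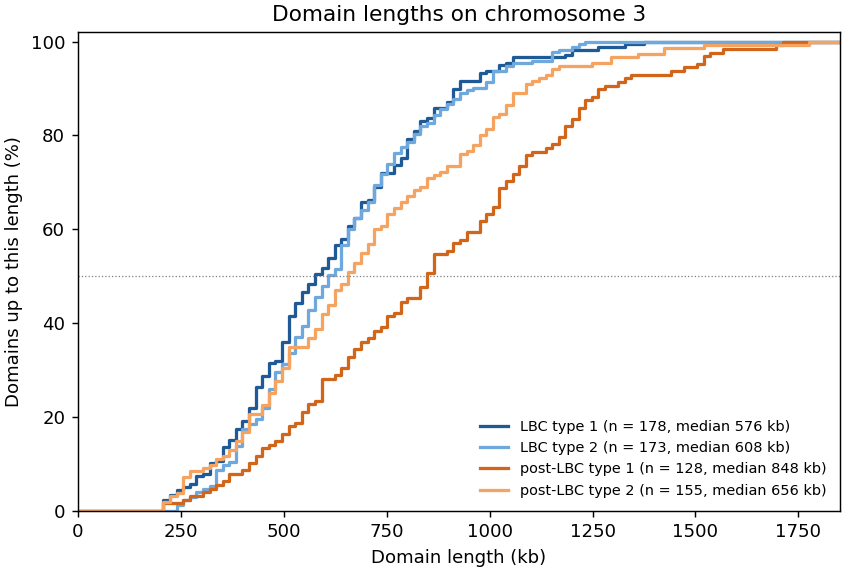
Cumulative distribution of domain length on chromosome 3 in the 4 automatic lists. The x axis is the length in kb and the y axis the percentage of the list's domains up to that length; the 2 LBC curves lie together, the post-LBC type 1 curve lies to their right with a median of 848 kb, and the post-LBC type 2 curve crosses from the LBC curves towards it.

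The longest domains of the LBC lists lay near the left end of the chromosome. In LBC type 1 the longest was chr3:768001-2144000 (1376 kb), followed by chr3:75680001-77008000 (1328 kb). In LBC type 2 they were chr3:960001-2192000 (1232 kb) and chr3:99024001-100240000 (1216 kb). The first domains of these pairs overlap. Their ends matched within the 80 kb used below, but their starts, at 768001 and 960001, did not. After the lampbrush stage the longest were chr3:43696001-45408000 (1712 kb) and chr3:20640001-22336000 (1696 kb) in type 1. In type 2 they were chr3:20672001-22448000 (1776 kb) and chr3:95600001-97120000 (1520 kb). The domains beginning at 20640001 and 20672001 overlap, so both post-LBC lists had one of their longest 2 domains there. Their starts lay 32 kb apart and their ends 112 kb, so the ends did not match within 80 kb.

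The shortest domains were close to the lower limit of the lists, none of which held a domain of 200 kb or less. LBC type 1 had 4 domains of 208 kb, of which chr3:32544001-32752000 and chr3:107552001-107760000 are the first pair in the fixed order. LBC type 2 had 2 domains of 240 kb, at chr3:20224001-20464000 and chr3:31776001-32016000. Post-LBC type 1 had 2 of 208 kb, at chr3:13232001-13440000 and chr3:101584001-101792000. Post-LBC type 2 had 3 of that length, including chr3:95392001-95600000 and, at the same bases as in post-LBC type 1, chr3:101584001-101792000.

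Length varied along the chromosome. The span was divided into 10 equal parts of 11.2 Mb, numbered from the left, and each domain was placed by its middle, which gave 11 to 22 domains per part and list. In LBC type 1 the part medians ranged from 432 kb in part 1 to 720 kb in parts 6 and 9. In LBC type 2 they ranged from 520 kb in part 4 to 728 kb in part 9. Both LBC lists thus had shorter domains in the first parts than in part 9. In post-LBC type 1 the medians ran from 648 kb in part 2 to 1056 kb in part 5, and in post-LBC type 2 from 592 kb in part 7 to 896 kb in part 6.

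The part medians of type 1 were higher at the post-LBC stage in 10 of 10 parts, with ratios from 1.20 in part 6 to 1.94 in part 5. In type 2 they were higher in the first 6 parts, with ratios of 1.20 to 1.32, and lower in the last 4. With the chromosome divided at its middle, base 56304000, the left side had medians of 512 and 792 kb before and after in type 1, and 560 and 672 kb in type 2. The right side had 680 and 880 kb in type 1, a ratio of 1.29, and 688 and 640 kb in type 2, a ratio of 0.930. The division at the middle was chosen after the values by part had been seen. The small type 2 ratio of the whole chromosome therefore combined a higher median on the left with a lower one on the right.

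**Figure D2:**
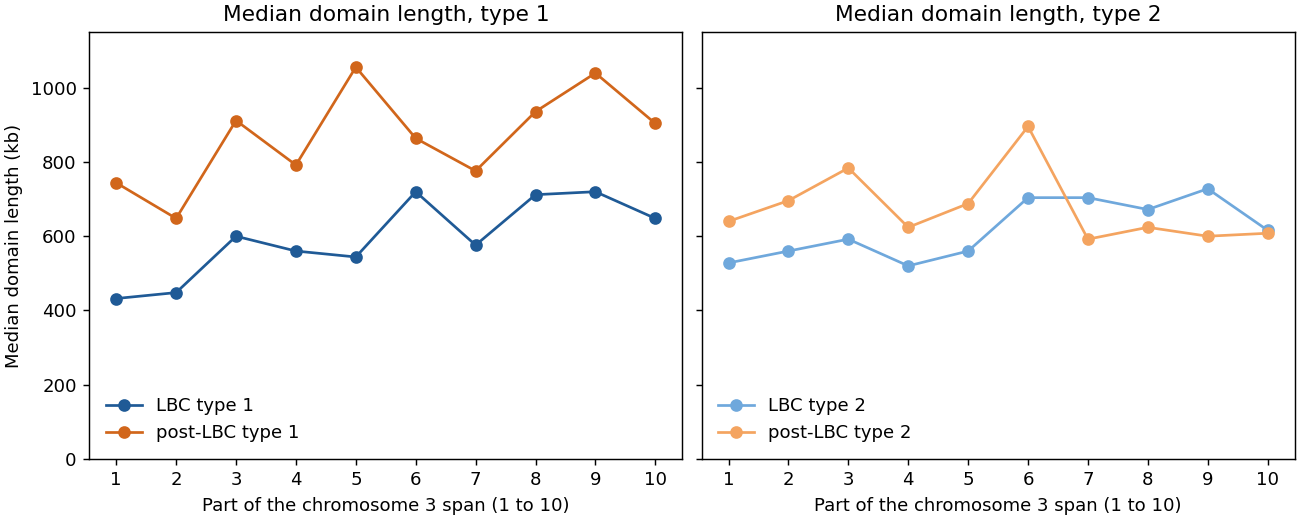
Median domain length in kb (y axis) in 10 equal parts of the chromosome 3 span (x axis), at the LBC and post-LBC stages of type 1 (left) and type 2 (right). Each point is the median of 11 to 22 domains; the post-LBC points of type 1 lie above the LBC points in all 10 parts, those of type 2 only in parts 1 to 6.

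To follow single borders, LBC borders were set against the post-LBC list of the same type. A border was called kept when that list had an edge within 80 kb of it, and lost otherwise. A post-LBC border was called gained when the LBC list had no edge within 80 kb. An edge was the start or end of a domain, or the middle of a gap between domains. The large gaps thus counted as borders by their middles, which matched the middles of the same gaps in the other lists. Without gap middles as edges, 80 type 1 and 113 type 2 LBC borders were lost. In type 1, 78 of 177 LBC borders were lost, or 44.1% (37.0 to 51.4%), against 47.4% over the 28 chromosomes. The other 99 were kept. In type 1, 27 of 127 post-LBC borders were gained, or 21.3% (15.0 to 29.2%), against 26.3% over all chromosomes. The gained share depended on the distance allowed and was 39.4% at 16 kb, 33.1% at 32 kb and 10.2% at 160 kb. It was also 39.4% against the LBC list refined by hand. At 80 kb losses outnumbered gains by 51. The share lost was the lowest among chromosomes 1 to 5 and Z, where it ranged from 44.1 to 61.1%, but chromosome 4 was almost level at 44.4%. On chromosome 2 it was 51.0%.

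Between the type 2 lists many more borders were exchanged. There 111 of 172 LBC borders were lost, or 64.5% (57.1 to 71.3%), against 64.1% over all chromosomes, and 93 of 154 post-LBC borders were gained, or 60.4% (52.5 to 67.8%), against 58.6%. The intervals of type 1 and type 2 did not overlap for either share. They cover counting error alone and hold no spread between nuclei, and post-LBC type 2 is a single nucleus. The difference between the types was therefore not tested. Chromosome 3 lay near the whole set of chromosomes in all 4 of these shares, and for each of them the value over all chromosomes lay inside the interval of chromosome 3.

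Kept borders stood close to their earlier place in type 1. Of the 99, 50 were at the identical base and 76 had moved by at most 16 kb, the step of the grid on which the automatic lists lie. In type 2 only 13 of 61 kept borders were at the identical base and 26 had moved by at most 16 kb, and their median shift was 48 kb. Shifts of kept borders are at most 80 kb by definition. How many borders an unrelated list would match within that distance was not tested. The borders that moved did so in both directions, 21 to the right and 28 to the left in type 1, and 21 to the right and 27 to the left in type 2. Lost borders lie over 80 kb from any later edge by definition. Their median distance to the nearest one was 352 kb in type 1 (quartiles 212 and 492 kb) and 224 kb in type 2 (quartiles 160 and 328 kb). A later edge within 160 kb was found for 14 of 78 lost borders in type 1 and for 34 of 111 in type 2. The values over all chromosomes are not given here for these shifts and distances.

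The domains beside a border did not separate kept from lost ones. In type 1 the shorter of the neighbouring domains had a median of 464 kb at kept borders and 464 kb at lost ones, and the longer neighbour 736 kb at both. In type 2 the shorter neighbour had a median of 480 kb at both kinds of border.

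In type 1 the share of borders lost ranged from 5 of 17 in part 7 (29.4%) to 10 of 16 in part 9 (62.5%). The gained borders were unevenly placed. On the left side of the chromosome 7 of 64 post-LBC type 1 borders were gained, or 10.9% (5.40 to 20.9%), and on the right side 20 of 63, or 31.7% (21.6 to 44.0%). The shares lost differed less, at 41.2% (31.96 to 51.2%) on the left and 47.5% (36.9 to 58.3%) on the right. In number, 40 borders were lost and 7 gained on the left side of chromosome 3. On the right side 38 were lost and 20 gained. This division was chosen after the values by part had been seen, and the intervals cover counting error alone. The same division of chromosome 2 gave 26.5% and 47.4% gained in type 1, with the right side again higher. On chromosome 4 the order was the opposite, with 26.0% on the left and 12.2% on the right. In type 2 the gained shares of chromosome 3 were 59.5% on the left and 61.3% on the right.

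**Figure D3:**
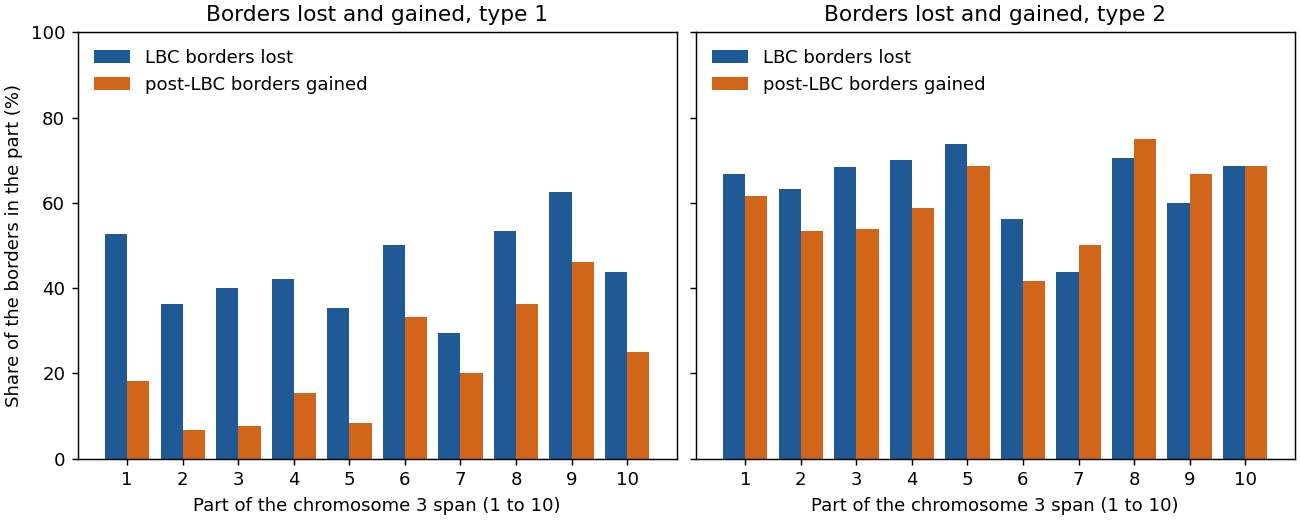
Share of LBC borders lost and of post-LBC borders gained (y axis, % of the borders in the part) in 10 equal parts of the chromosome 3 span (x axis), for type 1 (left) and type 2 (right). In type 1 the gained share stays at or below 18.2% in parts 1 to 5 and lies between 20.0 and 46.2% in parts 6 to 10; in type 2 both shares lie between 41.7 and 75.0% in every part.

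Whole domains were followed in the same way. An LBC domain was counted as kept whole when a single post-LBC domain matched both of its ends within 80 kb. In type 1, 48 of 178 domains were kept whole, or 27.0% (21.0 to 33.9%), against 24.7% over all chromosomes. In type 2, 17 of 173 were, or 9.83% (6.23 to 15.2%), against 10.1%. With 16, 32 and 160 kb allowed, 4, 5 and 41 type 2 domains were kept whole, and at 16 kb 27 type 1 domains were. The kept type 1 domains had a median of 624 kb and ranged from 208 to 1376 kb, so they included both the longest LBC type 1 domain and one of the shortest.

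A post-LBC domain was called a fusion when its ends matched LBC edges and 1 or more LBC borders lay inside it, more than 80 kb from either end. In type 1, 32 of 128 post-LBC domains were fusions, or 25.0% (18.3 to 33.2%), against 22.1% over all chromosomes. Of these, 27 joined 2 LBC domains and 5 joined 3. Their median length was 1152 kb, against 640 kb for the 48 post-LBC domains that each matched a single LBC domain, and they held 33.6% of the domain length. A greater length follows from the definition, since a fusion spans more than 1 LBC domain. The 69 LBC domains that entered a fusion had a median of 512 kb (quartiles 416 and 656 kb). In type 2 only 7 of 155 post-LBC domains were fusions, or 4.52% (2.20 to 9.03%), against 5.29%, and all 7 joined 2 domains. Of the type 1 fusions 21 lay on the left side of the chromosome and 11 on the right. This is 32.8% (22.6 to 45.0%) and 17.2% (9.88 to 28.2%) of the post-LBC domains there. These intervals overlap, and the division at the middle was chosen after the values by part had been seen. A domain that ends at a gained border cannot be a fusion, so these shares are not independent of the gained shares by side. Fusions by side are not given here for other chromosomes.

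**Figure D4:**
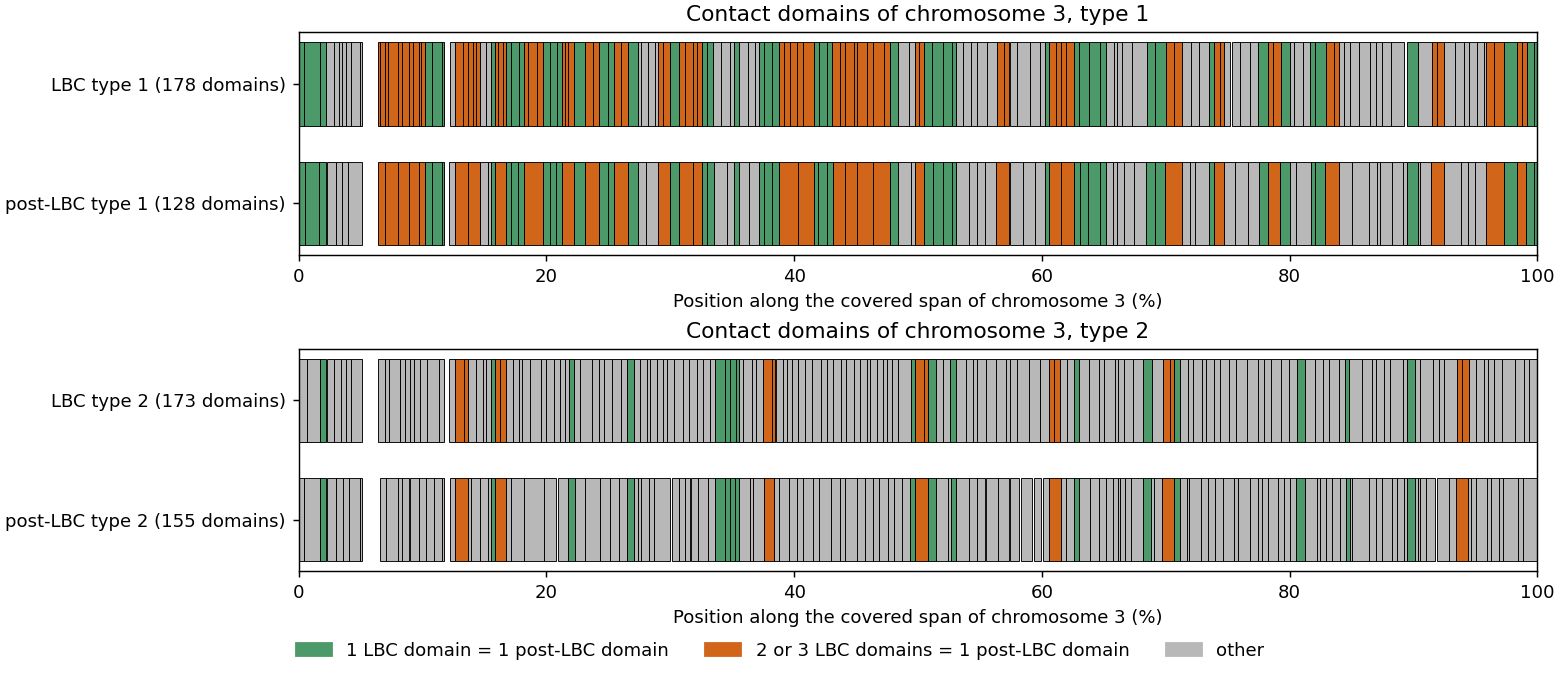
Map of the chromosome 3 domains along the covered span (x axis, % of the span) for type 1 (top) and type 2 (bottom), each with the LBC list above the post-LBC list. Green domains matched 1 to 1, and orange domains are the 32 type 1 and 7 type 2 fusions and the LBC domains in them. Grey domains are all others, including LBC domains with both ends kept but a gained border inside. The white gaps on the left stand in all 4 lists.

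The fusions of 3 domains include the longest post-LBC type 1 domains. The domain chr3:43696001-45408000 (1712 kb) took the place of 3 LBC domains of 464 to 688 kb, whose borders at 44176000 and 44704000 were lost. The domain chr3:20640001-22336000 (1696 kb) did the same over borders at 21040000 and 21840000 and domains of 384 to 800 kb. The other 3 were shorter, at 1104, 1024 and 1024 kb, and began at 15568001, 18016001 and 24128001, so all 5 lay on the left side of the chromosome.

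Fusions also followed each other directly. There were 6 such series in type 1, which together held 17 of the 32 fusions, and none in type 2. The share of fusions in such series over all chromosomes is not given here. In chr3:7424001-11696000, right after the first large gap, 10 LBC domains were replaced by 5 post-LBC domains over 4272 kb, each of them a fusion of 2. In chr3:48640001-53744000, 8 LBC domains were replaced by 4 over 5104 kb in the same way. The longest fusion opened another series, chr3:43696001-46880000, in which 5 LBC domains became 2.

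In type 1, 46 of the 78 lost borders stood next to another lost one, and in type 2, 99 of 111 did. Whether this is more than the share lost alone would give was not tested, and these shares over all chromosomes are not given here. Consecutive lost borders formed 51 runs in type 1, of which 32 held 1 lost border, 14 held 2, 4 held 3 and 1 held 6. Runs of 2 or more were 19 of the 51, or 37.3%, against 37.2% over all chromosomes. A run without any gained border inside it is a plain joining of its domains. This was so for 27 of the 32 runs of 1 and 5 of the 14 runs of 2, but for none of the 5 longer runs. In type 2 there were 38 runs, 26 of them of 2 or more, or 68.4%, against 63.1% over all chromosomes. Only 6 of the 38, each of a single lost border, held no gained border. The summed span of the runs, gaps inside them included, equalled 87.2% of the summed LBC domain length in type 2 and 70.2% in type 1. With 16 kb allowed there were 21 runs in type 2, and from the refined LBC list there were 18 in type 1.

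**Figure D5:**
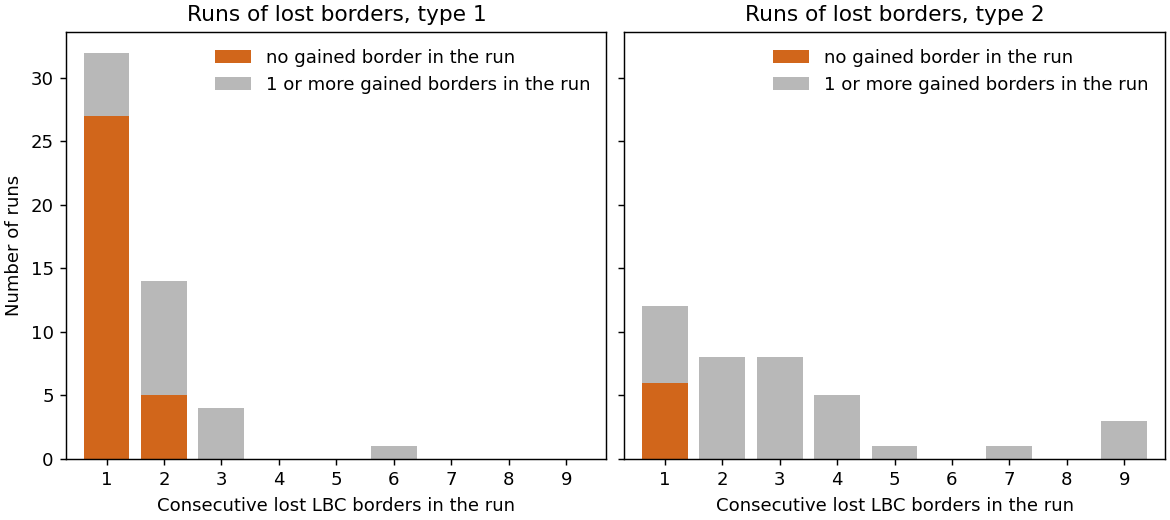
Number of runs of consecutive lost LBC borders (y axis) by the number of lost borders in the run (x axis), for type 1 (left) and type 2 (right). Orange runs held no gained post-LBC border and grey runs held 1 or more; in type 1, 32 of 51 runs are orange, in type 2 only 6 of 38.

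The longer runs held gained borders as well as lost ones. In type 1 the longest, chr3:94400001-99152000, lost 6 borders and gained 4, so that 7 LBC domains of 512 to 928 kb were followed by 5 domains of 256 to 1536 kb. Its lost borders at 95456000, 97184000 and 97744000 each had a gained border 96 kb away, just beyond the 80 kb allowed. With 160 kb allowed these would count as kept. The outer edges of the run moved by no more than 16 kb. The next were chr3:64624001-67776000 and chr3:83968001-87088000, which each lost 3 borders and gained 2. In type 2 there were 3 runs of 9 lost borders each, chr3:32016001-37952000 with 7 gained borders, chr3:49808001-55648000 with 7 and chr3:19040001-24736000 with 4. The last of these includes the 1776 kb domain that is the longest of post-LBC type 2.

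Unbroken stretches of kept borders were shorter than the longest runs of lost ones. In type 1 the most were 5 consecutive borders, in 3 places between 11696000 and 14384000, between 56896000 and 59744000 and between 70464000 and 73312000. The first of these includes the gap at 13440001, whose middle is one of its borders. In type 2 the longest stretch also held 5, between 37952000 and 40064000, and it began at the right end of one of the runs of 9. No gained border lay within any of these 4 stretches.

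The lists of the different types were then set side by side. At the LBC stage 72 of 177 type 1 borders had a type 2 edge within 80 kb, or 40.7% (33.7 to 48.0%), against 49.9% over all chromosomes, which is above the interval of chromosome 3. At the post-LBC stage 72 of 127 type 1 borders had a type 2 edge, or 56.7% (48.0 to 65.0%), against 57.1%. Of the 72 borders shared at the LBC stage, 31 were kept in both types, 20 were lost in both, 16 were kept in type 1 alone and 5 in type 2 alone. Kept type 1 borders had an LBC type 2 edge in 47 of 99 cases (47.5%, 37.9 to 57.2%) and lost ones in 25 of 78 (32.1%, 22.7 to 43.0%), and these intervals overlap. For the fates of the shared borders and for this comparison, the shares over all chromosomes are not given here. Whether they are particular to chromosome 3 was therefore not tested.

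Gained borders matched edges of the other type about as often as over all chromosomes. In type 1, 8 of the 27 had an LBC type 2 edge, or 29.6% (15.9 to 48.5%), against 31.4% over all chromosomes, and 13 of the 27 had a post-LBC type 2 edge, or 48.1% (30.7 to 66.0%), against 42.1%. In type 2, 38 of the 93 had an LBC type 1 edge, or 40.9% (31.4 to 51.0%), against 38.6%.

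Borders present in all 4 lists numbered 31 of the 177 LBC type 1 borders, or 17.5% (12.6 to 23.8%), against 19.2% over all chromosomes. Another 36 were in no other automatic list, or 20.3% (15.1 to 26.9%), against 20.0%. The 31 were a median of 2432 kb apart. They include 6712000 and 13680000, the LBC type 1 middles of the large gaps, which matched only the middles of gaps. Parts 2 and 7 held 6 each, and parts 9 and 10 held 1 each. Between 89968001 and 106160000, a stretch of 16192 kb, no border was shared by all 4 lists, and this stretch includes the run of 6 lost borders. Only 3 domains were kept whole in both types. They were chr3:2144001-2704000 (560 kb), chr3:70464001-70912000 (448 kb) and chr3:17664001-18016000 (352 kb) in LBC type 1, with lengths of 512, 448 and 384 kb in LBC type 2. The first of them ends at a small gap of all 4 lists, after which the next domain begins 64 to 96 kb further on. It also adjoins the longest LBC domain.

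The authors also refined the LBC type 1 list by hand, which left 101 domains with a median of 1056 kb on chromosome 3. Of the 99 kept type 1 borders, 71 had an edge of the refined list within 80 kb, or 71.7% (62.2 to 79.6%), against 73.3% over all chromosomes. Of the 78 lost borders only 14 did, or 17.9% (11.0 to 27.9%), against 18.3%. Of the 27 gained borders 6 did, and for these the share over all chromosomes is not given here. The borders lost by the post-LBC stage were therefore mostly those that the hand refinement had not retained at the LBC stage. Both LBC lists come from the same map, and whether the post-LBC map was in view during the refinement is not given in the sources used here. With the refined list as the starting point the ratio of medians in type 1 was 0.803 in place of 1.47. The length difference between the lists of chromosome 3 thus depended on the LBC list. From the refined list 25 of 100 borders were lost in place of 78 of 177, a count whose share over all chromosomes is not given here. Both comparisons set lists of unlike kinds side by side, since the post-LBC list used here is automatic, and a refined post-LBC list was not analysed here. The paper's account of fusion does not rest on such lists alone. It reports fusion of many neighbouring LBC domains from visual inspection of borders on chromosome 3. Genome-wide, it also reports more contacts between neighbouring LBC domains at the post-LBC stage.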

How the data were processed

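Nuclei were processed by the authors with single-nucleus Hi-C. Reads were trimmed with cutadapt 4.1, aligned to ASM2420605v2 with juicer 1.5.6, filtered to mapping quality 30 or more, and written to contact maps with cooler 0.10.2, and domains were called on merged maps with lavaburst 0.2.0. The deposited files hold domain starts and ends in bp, with no score and no counts, so the depth is not known from them. The methods state a resolution of 20 kb, whereas all 4 automatic lists lay on a 16 kb grid. For single nuclei the gamma setting was chosen by the authors so that domains over 200 kb averaged closest to 1 Mb, and the gamma of each merged map is not given in the sources used here.

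Lists were compared with Python 3.11.15, numpy 2.4.6 and scipy 1.17.1, and plots were drawn with matplotlib 3.10.9. A border was the middle of the gap between neighbouring domains. Borders were matched within 80 kb to the starts, ends and gap middles of the other list. Coordinates are printed 1-based. Background shares are over the 28 chromosomes of all lists. Domains were named by rule: the 2 longest and 2 shortest of each list, gaps over 200 kb, the 3 runs of each type with most lost borders, the longest kept stretches and the longest domains kept in both types. The series of fusions and the division at the middle were added after the values were seen. The members and lists were chosen with earlier results of these data known. The border counts were tested on simulated data, 3 made lists, where all made losses, gains and fusions were found. Genes and sequence were not analysed here.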

Additional observations from a re-analysis of the deposited data

Results flagged for a closer look

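In 4 of the 10 parts of chromosome 3 the types moved in opposite directions between the stages, and this difference was not tested. In part 7 the median domain length was 1.35 times the LBC value in post-LBC type 1 and 0.841 times in post-LBC type 2. In part 8 these ratios were 1.31 and 0.929, in part 9 they were 1.44 and 0.824, and in part 10 they were 1.40 and 0.987. The 4 parts adjoin each other at the right end of the chromosome, and each ratio rests on 12 to 18 domains per list. The last ratio is close to 1. By the mean length, post-LBC type 2 was lower in parts 7, 9 and 10, with ratios of 0.911, 0.875 and 0.981, but in part 8 it was 1.01.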

How the results depend on the processing

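Of 54 alternatives to 10 results, 31 stayed within the limits set for them, 22 moved and 1 reversed. With 16, 32 and 160 kb allowed for a match the type 1 share lost was 57.1, 52.5 and 36.2% and the share gained 39.4, 33.1 and 10.2%. In type 2 they were 84.9, 83.1 and 44.8% lost and 84.4, 83.1 and 37.0% gained. At 16 kb 27 type 1 domains were kept whole, and in type 2 4, 5 and 41 were at the 3 distances. Type 2 runs numbered 21 at 16 kb and 23 at 32 kb. With the manually refined list, type 1 had 25.0% of borders lost, 39.4% gained, 18 runs and a reversed ratio of medians of 0.803. These values set a refined LBC list against an automatic post-LBC one. With domains of at least 400 kb only, the type 1 ratio was 1.32. One-to-one matching, leaving out gaps or ends, and not counting gap middles (added after seeing the data) left the shares inside their intervals. No paired analysis was possible because the lists are of pooled nuclei with no values per nucleus, and leaving out a nucleus was not possible for the same reason. Contact depth, which limits the placing of borders, is not in the lists, and post-LBC type 2 is a single nucleus.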
